A study of Mus musculus with 10 samples.

Results

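Phospholamban and the genes that move calcium through the sarcoplasmic store and the cell surface were followed in mouse oviducts with and without the progesterone receptor. The set was fixed by symbol and held 10 genes: Pln, Sln, Atp2a2, Atp2a3, Ryr2, Itpr1, Casq2, Atp2b4, Cacna1c and Cacna1h. A gene was measured through array probe sets annotated to it alone, and where there were several the brightest on average over all 10 arrays stood for it. On that rule 8 of the 10 genes were measured, each through 1 probe set, out of 19938 genes in the whole series. Itpr1, an inositol trisphosphate receptor, and Atp2b4, a plasma membrane calcium pump, were not analysed here, because no probe set carried either symbol in the annotation used. The genes were selected on their roles with the genotype difference of Pln on these same arrays already known. The differences below therefore describe the set and are no independent evidence about it.

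Whole oviducts came from prepubertal PRKO mice, homozygous for a lacZ insertion that disrupts transcription of both isoforms of the progesterone receptor gene Pgr. They were set against PR+/- mice, which carry the same insertion on 1 allele and have normal fertility per the series' design text. Mice of both genotypes, 21 to 23 days old at the first injection, received 5 IU of equine chorionic gonadotropin (eCG, which drives follicle growth) and 44 to 47 h later 5 IU of hCG (human chorionic gonadotropin, the ovulatory trigger), and oviducts were taken 8 h after hCG. Oviducts of 3 animals were pooled for each array, giving 5 PRKO arrays and 5 PR+/- arrays from 15 animals per genotype. The insertion is present in every cell from conception, and no wild-type mouse and no time before hCG was included. In whole tissue, fewer cells of a type and less RNA per cell cannot be told apart.

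In muscle, calcium is held inside the sarcoplasmic reticulum, from which ryanodine and inositol trisphosphate receptors release it to start contraction. SERCA pumps return it to the store. Phospholamban is a small membrane protein that slows the SERCA pump until protein kinase A or calcium/calmodulin-dependent kinase II phosphorylates it, and it is best known from heart but is also made in smooth muscle. In the oviduct a smooth muscle coat, together with cilia, moves the egg, and its contractions depend on calcium that enters through L-type channels or leaves the store.

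Signals are log2 values from the deposited table, on which a difference of 1 unit is a 2-fold change. Pairs of arrays correlated over all genes at 0.9877 to 0.9924 in PRKO and at 0.9945 to 0.9964 in PR+/-, and the SD of the median gene was 0.167 log2 units in PRKO and 0.113 in PR+/-. Values of 1 array had an interquartile range of 3.13 to 3.415 log2 units in PRKO and 3.374 to 3.484 in PR+/-. All PRKO arrays but replicate 2 had a smaller range than every PR+/- array. A fit with this range as a covariate therefore cannot cleanly separate genotype from array spread. Pgr itself was at 6.31 to 6.39 log2 units on PRKO arrays and at 7.27 to 7.55 on PR+/- arrays, so the genotype labels matched its signal. Markers of multiciliated cells, which line the oviduct, averaged 8.16 to 8.36 log2 units in PRKO and 8.05 to 8.32 in PR+/-. The mean of 12 ovarian markers was 4.98 in PRKO replicate 3 and 4.86 in PR+/- replicate 4, against 3.90 to 4.13 on the other 8 arrays, and results are given without that pair of arrays where this matters.

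Of the 8 genes measured, Pln rose in PRKO oviducts, Cacna1c fell and the other 6 did not pass the test. Pln signal was 1.97-fold higher, while that of Atp2a2, the pump that phospholamban acts on, had a log2 difference of 0.09. Cacna1c, the pore of the L-type calcium channel, was 1.34-fold lower. Sln, Atp2a3, Ryr2, Casq2 and Cacna1h had log2 differences between -0.19 and 0.15. A gene was called where limma, fitted to all 19938 genes, gave a Benjamini-Hochberg adjusted p under 0.05. Over all genes 1.09% were called higher in PRKO and 3.87% lower, which makes 4.96% in all. The median log2 difference was 0.01 over the 8 genes and 0.03 over all genes.

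**Figure D1:**
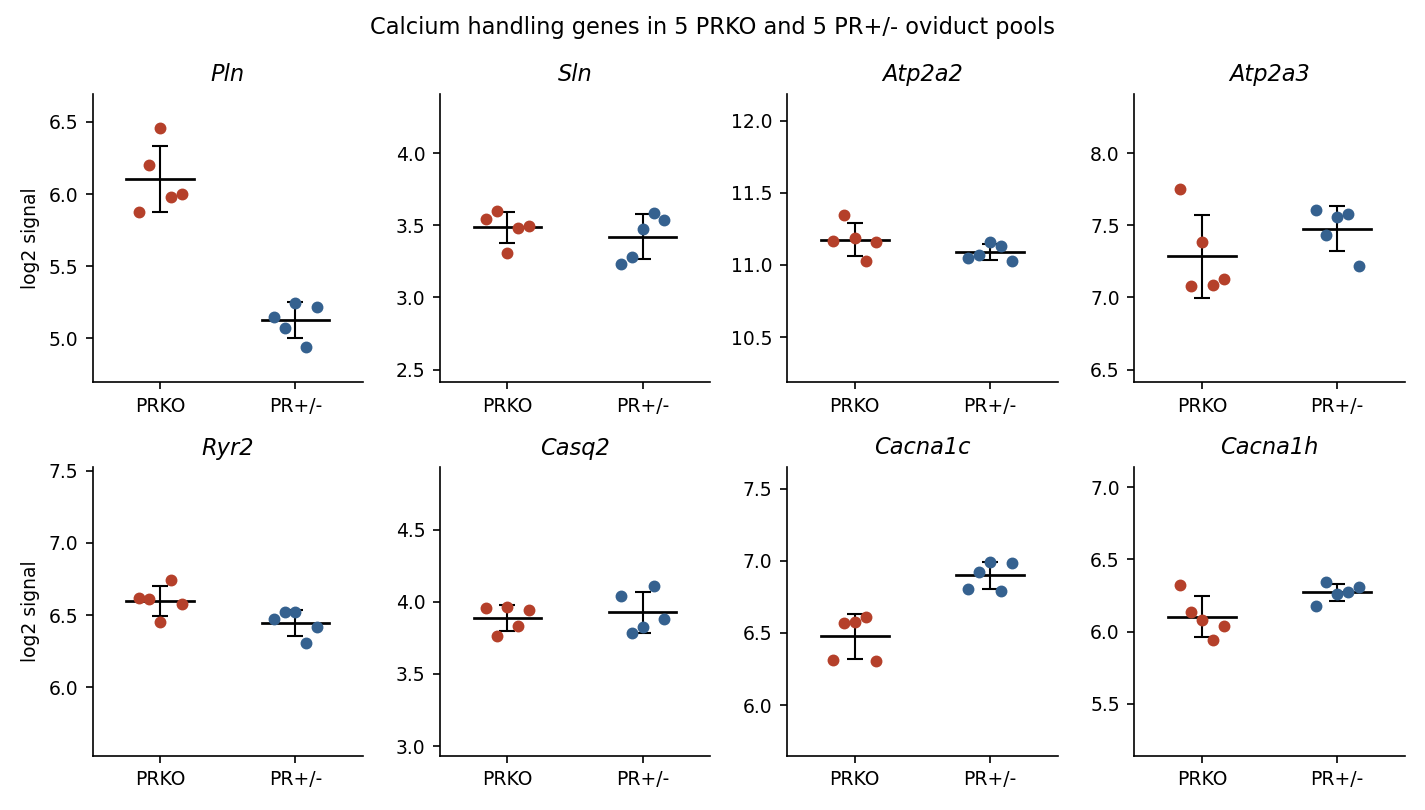
Log2 signal of the 8 measured genes on each array, PRKO at the left of each panel and PR+/- at the right. Points are arrays, long bars are means and whiskers are SD over 5 arrays; every panel spans 2 log2 units around its own centre. The PRKO points of Pln lie between 5.88 and 6.46, all above the PR+/- points at 4.94 to 5.25, and those of Cacna1c lie below the PR+/- points.

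The stretch just before the start of Pln is shown because this is the gene of the set with the largest genotype difference. It is the 250 bases upstream of the annotated start on the plus strand of mouse chromosome 10, chr10:53337436-53337685, from RefSeq on GRCm38.p6. Capitals mark the sites of searched motifs.

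Pln: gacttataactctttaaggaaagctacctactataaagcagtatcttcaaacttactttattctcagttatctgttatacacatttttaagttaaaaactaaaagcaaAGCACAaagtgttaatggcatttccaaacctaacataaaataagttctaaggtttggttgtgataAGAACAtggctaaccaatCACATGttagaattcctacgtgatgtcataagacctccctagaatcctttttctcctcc

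Both strands were searched for the hexamer TGTNCT, which progesterone and glucocorticoid receptors recognise, for the full receptor element in which a pair of such hexamers faces each other, for the E-box CANNTG and for the CArG box of smooth muscle genes. The window held TGTNCT at 2 sites, both on the minus strand and therefore printed as AGCACA and AGAACA, whose leftmost bases lie at -142 and -77 from the start. It held 1 E-box, at -59, and neither the full element nor a CArG box. Among 32851 promoter windows of the same length in the table, 44.7% held at least 1 TGTNCT and 13.7% at least 2, while 66.2% held an E-box, 0.387% the full element and 1.47% a CArG box. The 3 annotated starts of Cacna1c gave windows with 1, 0 and 2 TGTNCT sites and no full element or CArG box. Promoters of 5 of the 8 measured genes were matched. These matches describe the letters only.

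Pln had log2 signals of 5.88, 6.20, 6.46, 5.98 and 6.0 in PRKO replicates 1 to 5, against 5.15, 5.07, 5.25, 4.94 and 5.22 in PR+/- replicates 1 to 5. The lowest PRKO pool stood above the highest PR+/- pool, as it did for 2.15% of all genes. The mean was 6.10 ± 0.23 in PRKO and 5.13 ± 0.12 in PR+/- (SD, n = 5 each). The log2 difference was 0.98 ± 0.11 (SE), with a 95% interval of 0.75 to 1.21 (limma adjusted p = 7.08e-05 over all genes). Ranked by size, it was the 7th largest rise of 19938 genes.

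The highest Pln value among PRKO pools was on replicate 3 and the lowest among PR+/- pools on replicate 4, which are the arrays with the high ovarian markers. Without both, the log2 difference was 0.84 (limma adjusted p = 2.58e-04). Pln lies within the span of another gene, Cep85l, in the gene table used, and Cep85l had a log2 difference of -0.03 ± 0.11 (SE, limma adjusted p = 0.905). The gene was added here after its value was seen.

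Sln encodes sarcolipin, a smaller relative of phospholamban that also binds SERCA pumps and is best known from atrial and skeletal muscle. Its log2 signal ran from 3.31 to 3.60 in PRKO and from 3.23 to 3.59 in PR+/-, and the groups overlapped. The log2 difference was 0.06, with a 95% interval of -0.13 to 0.25 (limma adjusted p = 0.708). The signal was brighter than that of only 17.8% of genes, and arrays can understate changes that close to background. Its sign turned under 2 other normalizations, quantile (-0.04) and cyclic loess (-0.04).

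Atp2a2 encodes the SERCA pump of heart, slow skeletal muscle and smooth muscle, with a form made in most cells. Its log2 signals were 11.16, 11.35, 11.18, 11.03 and 11.16 in PRKO replicates 1 to 5 and 11.05, 11.07, 11.16, 11.13 and 11.03 in PR+/- replicates 1 to 5. The groups overlapped, with PRKO replicate 2 the highest pool of all. The log2 difference was 0.09 ± 0.074 (SE), with a 95% interval of -0.07 to 0.25 (limma adjusted p = 0.514).

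Because the same arrays gave both genes, Pln could be set beside its pump within each pool. After each gene's own PR+/- mean was subtracted, Pln minus Atp2a2 was 0.89 ± 0.21 log2 units in PRKO and 0.00 ± 0.15 in PR+/- (SD, n = 5 each). It ran from 0.68 to 1.23 on PRKO arrays and from -0.23 to 0.15 on PR+/- arrays. The signals of the pair therefore changed unequally on every PRKO array. No test is given, since Pln was chosen with its rise known.

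Atp2a3 encodes the SERCA pump of platelets, lymphoid cells and some epithelia and vessels. Its log2 signal was 7.75 in PRKO replicate 1 and 7.08 to 7.38 in the other 4 PRKO pools, against 7.22 to 7.60 in PR+/-. PRKO replicate 1 was thus above every PR+/- pool, while 3 PRKO pools, replicates 2, 4 and 5, were below every PR+/- pool. The log2 difference was -0.19 ± 0.13 (SE), with a 95% interval of -0.46 to 0.08 (limma adjusted p = 0.397). Without PRKO replicate 1 it was -0.31 and still not called (limma adjusted p = 0.0945). Atp2a3 had the largest SD of the measured genes in each genotype, 0.29 in PRKO and 0.16 in PR+/-.

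Ryr2, the calcium release channel of heart that smooth muscle also makes, had log2 signals of 6.45 to 6.74 in PRKO and 6.31 to 6.53 in PR+/-. In 4 of 5 PRKO pools, all but replicate 3, it was above every PR+/- pool. The log2 difference was 0.15 ± 0.076 (SE), with a 95% interval of -0.01 to 0.32 (limma adjusted p = 0.270). Casq2, the calcium-binding protein of the cardiac store, was dim, at 3.76 to 3.96 in PRKO and 3.78 to 4.11 in PR+/-. The genotypes overlapped, and the difference of -0.04 had a 95% interval of -0.21 to 0.14 (limma adjusted p = 0.830).

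Cacna1c had log2 signals of 6.31, 6.57, 6.58, 6.61 and 6.31 in PRKO replicates 1 to 5, against 6.80, 6.92, 6.99, 6.79 and 6.98 in PR+/- replicates 1 to 5. All PRKO pools lay below all PR+/- pools, as for 5.06% of all genes (7.2% had no overlap in either direction), and PRKO replicates 1 and 5 were the lowest. The mean was 6.48 ± 0.15 in PRKO and 6.90 ± 0.096 in PR+/- (SD, n = 5 each). Cacna1c fell by 0.42 ± 0.086 on the log2 scale (SE), with a 95% interval of -0.61 to -0.24 (limma adjusted p = 0.0105). With the interquartile range of the arrays as a covariate the difference was -0.33 and no longer called (limma adjusted p = 0.215), and without PRKO replicates 1 and 5 it was -0.31 (limma adjusted p = 0.0499). That range went largely with genotype, so the covariate fit cannot cleanly separate genotype from array spread.

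Cacna1h, the pore of a T-type calcium channel that opens at more negative voltages, had log2 signals of 6.32 in PRKO replicate 1 and 5.94 to 6.14 in the other 4 PRKO pools, against 6.18 to 6.34 in PR+/-. All PRKO pools but replicate 1 lay below every PR+/- pool. The log2 difference was -0.17 ± 0.080 (SE) and did not pass (limma adjusted p = 0.244). PRKO replicate 1 was the highest PRKO array for both Atp2a3 and Cacna1h, and the lowest for Pln.

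**Figure D2:**
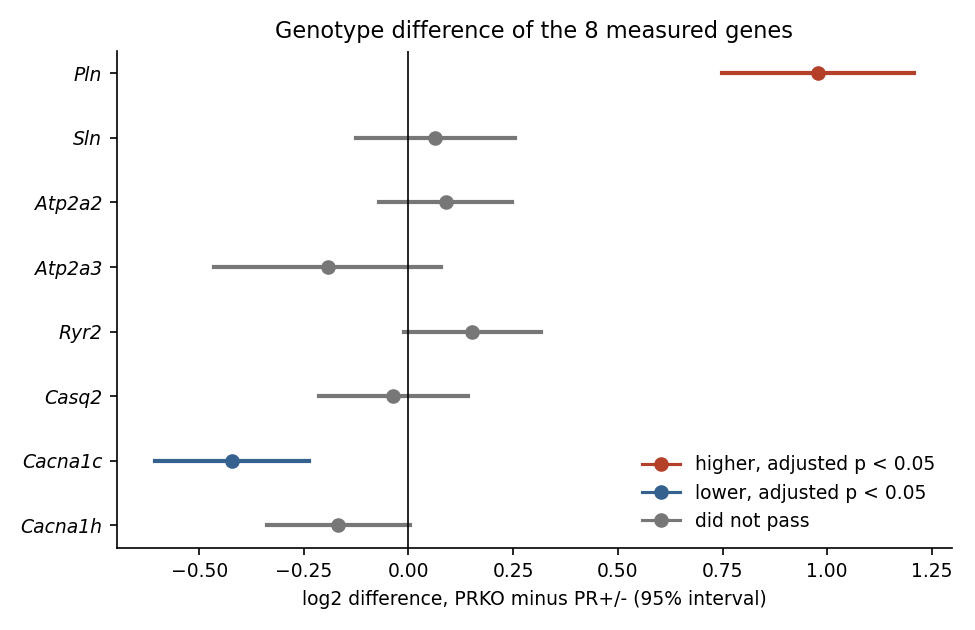
Log2 difference between PRKO and PR+/- for each measured gene (points) with its 95% interval from limma (lines). Pln at 0.98 is the gene called higher and Cacna1c at -0.42 the gene called lower; the intervals of the other 6 include 0.

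Other genes of calcium handling were counted from 8 lists by role, with the 10 genes above left out. Of 124 listed, 110 were measured: 8 fell, none rose and 102 did not pass. That is 7.27% called, against 4.96% of all genes. At an unadjusted p under 0.05 in the same limma fit, 10 were higher and 29 lower, where 10.1% of all genes were higher and 11.1% lower. As shares of the 110 genes that is 9.09% higher and 26.4% lower. The lists' median log2 difference was -0.01, against 0.03 over all genes. Without PR+/- replicate 2 or PR+/- replicate 3 the count that fell was 5 each time, without PRKO replicate 2 it was 12 and without PRKO replicate 4 it was 8. Each of the last pair of fits also had 1 rise, that of Ppp1r3a, a subunit that targets protein phosphatase 1 to glycogen and the sarcoplasmic reticulum (log2 0.39 and 0.40). Ppp1r3a signal was close to background, brighter than that of only 5.1% of genes. On all 10 arrays its groups overlapped and it was not called (limma adjusted p = 0.0634).

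Among 8 further store pumps and small regulators none was called (limma, 2 higher and 2 lower at an unadjusted p under 0.05, where all genes gave 10.1% and 11.1%). Atp2a1, the fast skeletal muscle pump, had a log2 difference of 0.13, Mrln, the SERCA inhibitor myoregulin of skeletal muscle, one of 0.10, and Hrc, a histidine-rich protein of the store lumen, one of 0.27 (limma adjusted p = 0.127). Pln was therefore the gene of this list, of 12 measured, that passed. Strit1, which encodes a peptide that displaces phospholamban from the pump, was not analysed here.

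Of 21 further release channels and their partners 1 fell (4.76% called, against 4.96% of all genes). At an unadjusted p under 0.05 in limma 3 were higher and 7 lower, where all genes gave 10.1% and 11.1%. Tmem38b, a cation channel of the store membrane that balances charge during release, was at 6.66 to 6.94 log2 units in PRKO and at 7.44 to 7.57 in PR+/-. No PRKO pool reached any PR+/- pool, with a fall of 0.69 ± 0.073 (SE, limma adjusted p = 5.54e-05), or 1.61-fold. Tmem38b has several probe sets that disagree in size, and their mean gave -0.40 (limma adjusted p = 0.0227). The inositol trisphosphate receptor genes Itpr2 and Itpr3 had log2 differences of 0.05 and 0.11, and the ryanodine receptor genes Ryr1 and Ryr3 of 0.13 and 0.15. Trdn, triadin, which ties calsequestrin to ryanodine receptors, had one of 0.14. Jph2, which holds the store against the cell membrane, had one of -0.30 and did not pass (limma adjusted p = 0.0751). Jph2 was called in 5 of 22 alternative fits, among them the mean of its probe sets, with -0.38 (limma adjusted p = 0.00678).

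Among 12 further luminal proteins Rcn3, a calcium-binding reticulocalbin of the secretory pathway, fell by 0.45 ± 0.085 (SE, limma adjusted p = 0.00596). Its log2 signal was 8.04 to 8.49 in PRKO and 8.66 to 8.77 in PR+/-. Casq1, the skeletal calsequestrin, and Calr, calreticulin, had log2 differences of -0.13 and -0.15 and did not pass. Called genes made up 8.33% of these 12, against 4.96% of all genes. At an unadjusted p under 0.05 in limma 0 were higher and 3 lower, where all genes gave 10.1% and 11.1%.

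Of 21 further subunits and regulators of voltage-gated channels 2 fell (9.52% called, against 4.96% of all genes). At an unadjusted p under 0.05 in limma 3 were higher and 4 lower, where all genes gave 10.1% and 11.1%. Gem, a small GTPase that lowers the activity of L-type channels, was at 6.01 to 6.38 log2 units in PRKO and 6.78 to 6.96 in PR+/-, a fall of 0.73 ± 0.087 (SE, limma adjusted p = 1.42e-04). Cacna1d, another L-type pore, fell by 0.37 ± 0.084 (SE, limma adjusted p = 0.0197), with PRKO replicate 3 at 5.99 just above PR+/- replicate 4 at 5.97. Its call ended when PR+/- replicate 1, 2 or 3 was left out (limma adjusted p 0.0626, 0.0584 and 0.0523), and so it did when the interquartile range was added as a covariate (0.175). Without PRKO replicates 1 and 5 Cacna1d was not called either (limma adjusted p = 0.0759). The accessory subunits Cacna2d1 and Cacnb2 had log2 differences of -0.31 and 0.08 and did not pass.

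Of 11 genes of store-operated and receptor-operated entry, Trpc6, a cation channel opened by diacylglycerol, fell by 0.34 ± 0.088 (SE, limma adjusted p = 0.0367). Without any of PR+/- replicates 2 to 5, PRKO replicate 1 or PRKO replicate 3 its adjusted p was 0.0644 to 0.0931, and without both arrays of high ovarian markers it was 0.170. With the interquartile range as a covariate it was 0.111, and without PRKO replicates 1 and 5 it was 0.0624. Stim1, the calcium sensor of the store, had no overlap between genotypes, at 7.07 ± 0.047 log2 units in PRKO and 7.33 ± 0.11 in PR+/- (SD, n = 5 each), but did not pass (limma adjusted p = 0.0583). It was called in 3 of 22 alternative fits (limma adjusted p 0.0347 to 0.0499). Orai1, the channel that Stim1 opens, had a log2 difference of 0.07. Called genes made up 9.09% of these 11, against 4.96% of all genes. At an unadjusted p under 0.05 in limma 1 was higher and 4 lower, where all genes gave 10.1% and 11.1%.

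Genes that clear calcium from the cell gave 2 falls among 8 (25% called, against 4.96% of all genes). At an unadjusted p under 0.05 in limma 0 were higher and 2 lower, where all genes gave 10.1% and 11.1%. Slc8a1, the sodium/calcium exchanger of heart and smooth muscle, was at 5.32, 5.39, 5.54, 5.56 and 5.75 log2 units in PRKO replicates 1 to 5, against 6.18, 6.18, 6.24, 6.21 and 6.26 in PR+/- replicates 1 to 5. Every PRKO pool was below every PR+/- pool, and the PR+/- values were tight. Slc8a1 fell by 0.70 ± 0.084 (SE, limma adjusted p = 1.44e-04), or 1.63-fold. Nptn, neuroplastin, which accompanies plasma membrane calcium pumps, fell by 0.35 ± 0.088 (SE, limma adjusted p = 0.0339), a call that ended when any PR+/- array or PRKO replicate 1 was left out (0.0545 to 0.0881). With the interquartile range as a covariate Nptn was at -0.20 (limma adjusted p = 0.450). It was also not called without both arrays of high ovarian markers or without PRKO replicates 1 and 5 (limma adjusted p 0.0837 and 0.0935). Atp2b1, such a pump, had a log2 difference of -0.13 (limma adjusted p = 0.346).

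Of 21 kinases, phosphatases, phosphodiesterases and calcium sensors around phospholamban 1 fell, Camk2d, a calcium/calmodulin-dependent kinase II gene whose product can phosphorylate phospholamban. Its log2 signals were 7.75, 7.90, 7.71, 8.08 and 7.55 in PRKO replicates 1 to 5, against 8.45, 8.54, 8.34, 8.33 and 8.36 in PR+/- replicates 1 to 5. The genotypes did not overlap. Camk2d fell by 0.60 ± 0.095 (SE, limma adjusted p = 0.00159), or 1.52-fold, and with the interquartile range as a covariate its difference was -0.39 (limma adjusted p = 0.0711). Prkg1, the cyclic GMP-dependent kinase, had a log2 difference of 0.01 (limma adjusted p = 0.955). Called genes made up 4.76% of these 21, against 4.96% of all genes. At an unadjusted p under 0.05 in limma 1 was higher and 4 lower, where all genes gave 10.1% and 11.1%. Of 8 genes of mitochondrial calcium uptake none was called (limma, 0 higher and 3 lower at an unadjusted p under 0.05, where all genes gave 10.1% and 11.1%).

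**Figure D3:**
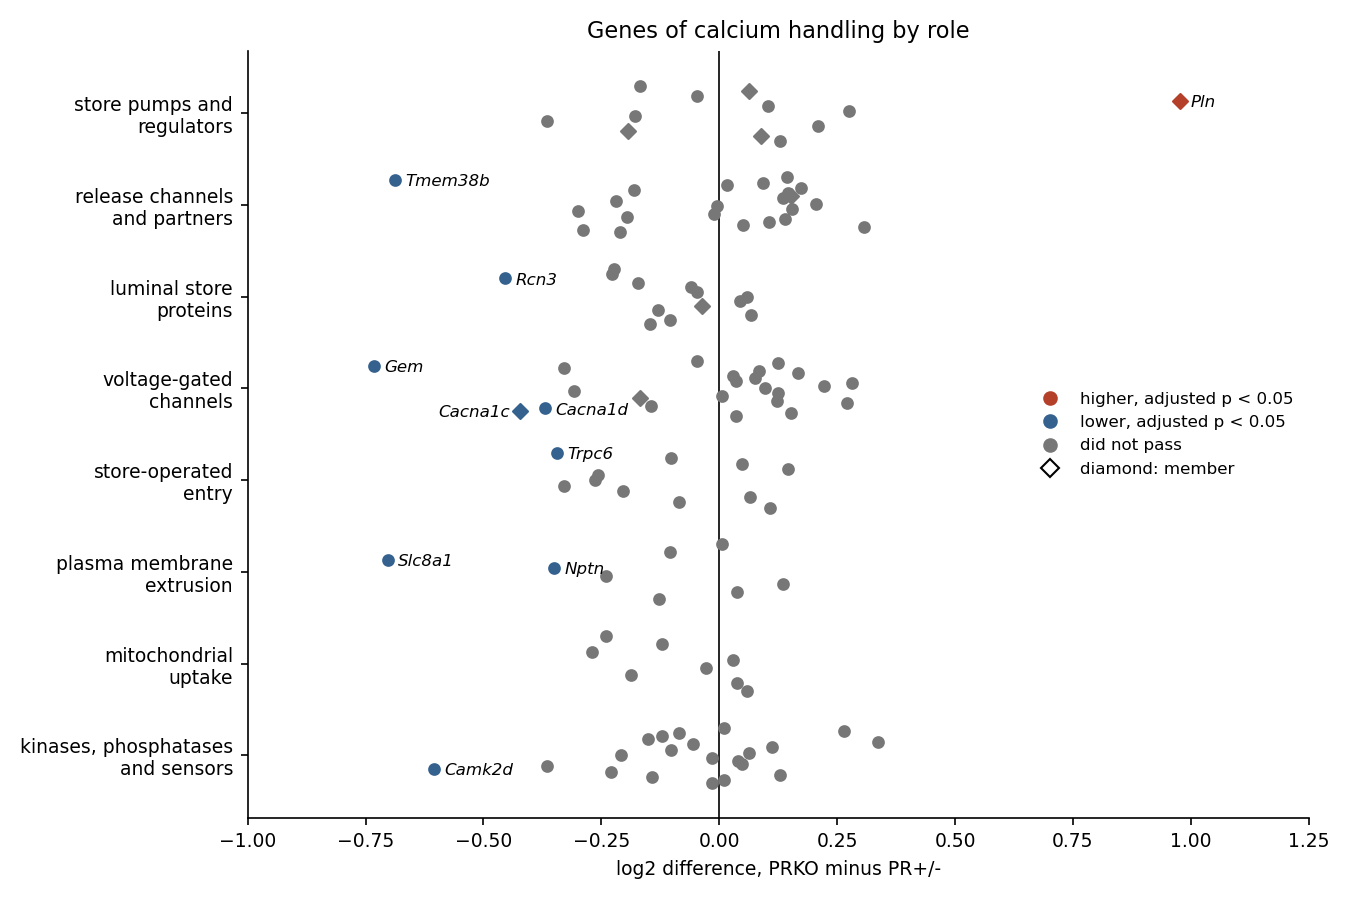
Log2 difference between PRKO and PR+/- for the measured genes of 8 calcium handling lists, 1 point per gene, with the genes of the set as diamonds. Called genes are coloured and named: Pln at 0.98 stands alone at the right, and the genes called lower, from Trpc6 at -0.34 to Gem at -0.73, lie at the left.

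Most markers of smooth muscle went the other way from Pln, with 18 negative and 3 positive log2 differences that ran from -1.51 to 0.45. Of 21 measured, 16 fell, none rose and 5 did not pass (limma, 1 higher and 17 lower at an unadjusted p under 0.05, where all genes gave 10.1% and 11.1%), with a median log2 difference of -0.64. Des, the muscle filament protein desmin, fell by 1.51, Actg2, visceral gamma actin, by 1.20, Cnn1, calponin, by 0.92, and Myocd, the coactivator of smooth muscle genes, by 0.92. Myh11, the smooth muscle myosin heavy chain, fell by 0.72 and Acta2, smooth muscle alpha actin, by 0.60 (limma adjusted p at most 6.80e-04 for these 6). The mean of the 21 markers was 7.76 to 7.97 log2 units in PRKO and 8.40 to 8.55 in PR+/-. The mean of 8 markers of vascular mural cells was 6.13 to 6.30 in PRKO and 6.59 to 6.78 in PR+/-. Of these 8, limma called 4 lower and none higher, where 3.87% of all genes were called lower. Their log2 differences were split, with 5 negative and 3 positive. How far lower muscle marker signal accounts for the lower Cacna1c, Slc8a1 or Camk2d was not tested.

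Pln was also set beside this list within each pool. After subtraction of PR+/- means, Pln minus the mean of the smooth muscle markers was 1.59 ± 0.22 log2 units in PRKO and 0.00 ± 0.076 in PR+/- (SD, n = 5 each), with a range of 1.38 to 1.90 in PRKO. This gap only joins the rise of Pln and the fall of the marker mean given above, and no test is given. Markers of the striated muscles in which phospholamban and its relatives are best known overlapped between genotypes. The mean of 10 cardiac markers was 4.65 to 4.85 log2 units in PRKO and 4.58 to 4.74 in PR+/-, and that of 13 skeletal muscle markers was 4.30 to 4.50 in PRKO and 4.26 to 4.38 in PR+/-. Several of these markers were as dim as Sln or dimmer, where arrays can understate changes. Of the cardiac markers 8 had a positive and 2 a negative log2 difference, with a median of 0.12. The called one was Tnnt2, cardiac troponin T, which fell (log2 -0.41, limma adjusted p = 0.0499). Myh6, the alpha myosin heavy chain of heart, had a log2 difference of 0.27 and did not pass (limma adjusted p = 0.0811). At an unadjusted p under 0.05 the cardiac markers gave 1 higher and 1 lower, and so did the skeletal ones, of which none was called by limma, where 10.1% of all genes were higher and 11.1% lower.

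**Figure D4:**
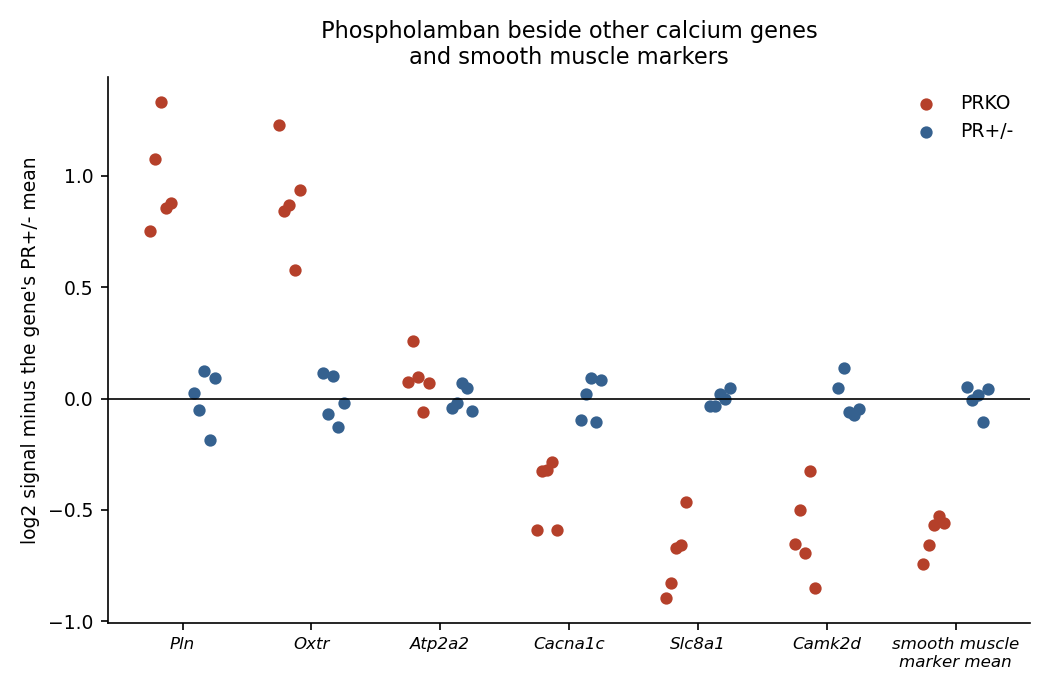
Log2 signal minus the gene's PR+/- mean on each array, with PRKO to the left of PR+/- at each position. Pln and Oxtr lie above 0 on every PRKO array, Atp2a2 lies around 0, and Cacna1c, Slc8a1, Camk2d and the mean of 21 smooth muscle markers lie below 0 on every PRKO array.

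The genes whose profile was closest to that of Pln were found by the root mean square difference of log2 values over the 10 arrays, after each gene's own mean was subtracted. The genotype step makes up most of such a profile, so this likeness largely restates it. The closest was Padi4, an enzyme that converts arginine to citrulline, at a distance of 0.219 log2 units. Oxtr, the oxytocin receptor of smooth muscle and epithelium, followed at 0.241 with a log2 difference of 0.89. The next were Adamtsl3, a matrix glycoprotein, at 0.262, Ptgdr2, a prostaglandin D receptor, at 0.270, Nova1, an RNA-binding splicing factor, at 0.279, Cdh16, a cadherin of epithelia, at 0.281, Wnt7a, a Wnt ligand of tract epithelium, at 0.284, and Nsg2, a neuronal vesicle protein, at 0.293. All 8 were called higher in PRKO, with log2 differences of 0.47 to 1.09, as closeness to Pln favours. None is on the calcium or muscle lists, where no gene but Pln was called higher, so that absence adds no information.

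Distances to Cacna1c were smaller. The measure is not scaled for the genotype step or the spread, both larger for Pln, so this does not show a closer match. Npnt, the matrix protein nephronectin, lay at 0.0600 log2 units, Fermt2, an adaptor that activates integrins, at 0.0701 and Smtn, the smooth muscle protein smoothelin, at 0.0758. Their log2 differences were -0.39, -0.40 and -0.46, against -0.42 for Cacna1c. The call of Npnt (limma adjusted p = 0.0407) ended when any PR+/- array but replicate 4, or PRKO replicate 1, 4 or 5, was left out (0.0502 to 0.101), and with the interquartile range as a covariate Npnt was at -0.24 (limma adjusted p = 0.467). Npnt was also not called by limma with quantile normalization (0.0514), with array weights (0.0531) or without PRKO replicates 1 and 5 (0.152). Fermt2 lost its call with the covariate, at -0.27 (limma adjusted p = 0.210).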

How the data were processed

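Expression was measured in 10 pooled whole-oviduct samples, 5 PRKO and 5 PR+/- by the titles, on Affymetrix whole-transcript arrays. The authors deposited 1 log2 value per probe set and array. The log2 scale was inferred from the values, which run from 1.09 to 13.6, and folds hold only if it is right. Partek was the software per the submitters' processing notes, and its version, background correction and normalization were not given in the sources used here. No detection values were given and no filter was applied. Of 35557 probe sets, 21789 carried 1 symbol in the platform annotation, 1621 several and 12147 none. Gene IDs were looked up in a GRCm38 table of names, and 0 symbols changed. The brightest probe set stood for a gene. The genotype term was tested in limma 3.58.1 under R 4.3.3 (8 residual degrees of freedom), with Benjamini-Hochberg adjustment over 19938 genes. The precision is limited by the number of arrays: the median 95% interval was ± 0.202 log2 units. Each pool counts as 1 replicate, and p-values reflect only how pools differ. Alternatives covered normalization, probe set rule, variance model, a filter on dim genes, array spread, the replicate number and arrays left out.

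The set, the lists, the alternatives and the naming rule were chosen with earlier results of these data known. The rule named all set members, Pgr, up to 4 called genes per calcium list by smallest p, a fixed group of calcium and muscle genes whatever their change, and the nearest profiles. Other genes were named after their values were seen: Cep85l, Ppp1r3a, Tnnt2 and Myh6. List symbols Irag1 and Irag2 were looked up under their older names.

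The replicate numbers of the labels were not taken as pairs. On data simulated for this comparison over 19938 genes, 8.0% of genes changed 1.25-fold were recovered, 78.0% at 1.5-fold and 100% at 2-fold. That simulation changed 50 genes at each fold, with normal noise of the same SD in both genotypes. In the data 988 genes were called and 74.7% of genes had a larger SD in PRKO, so recovery there may differ.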

Additional observations from a re-analysis of the deposited data

Results flagged for a closer look

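Among the 51 genes named by rule, the 5 arrays of each genotype were searched for 1 array far from its group, by the gap to its nearest neighbour over the group's range. Of 102 groups 5 passed, and chance gives about 1 in 20. None was of the 8 calcium handling genes of the set. Cacna1d stood apart in PRKO replicate 3, at 5.99 log2 units against 5.74 to 5.81 on the other PRKO arrays. Acta2 stood apart in PRKO replicate 1, at 11.4 against 11.7 to 11.8. In PR+/- replicate 4, Des was at 8.40 against 8.58 to 8.64 and Fermt2 at 8.20 against 8.33 to 8.37. Nptn was at 8.85 in PR+/- replicate 5 against 8.66 to 8.71.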

How the results depend on the processing

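The rise of Pln was called in all 22 alternative fits, with log2 differences of 0.84 to 1.09 and adjusted p-values up to 0.00361. The fall of Cacna1c was called in 21 of 22 (-0.47 to -0.31). With the interquartile range as a covariate, 0 genes of the set were called lower, as at an adjusted p under 0.01, and 4 of the wider lists were lower. Over all genes the covariate gave 58 higher and 264 lower, against 217 and 771 without it; leaving out 1 array gave 84 to 330 higher and 497 to 882 lower, leaving out both arrays of high ovarian markers gave 73 and 489, and 142 were higher with centring and 141 without PRKO replicates 1 and 5. The other 6 set genes were called in none of the fits that held them. Leaving out 1 array gave 5 to 12 wider genes lower and 0 to 1 higher, leaving out PRKO replicates 1 and 5 gave 5 lower, and array weights gave 1 higher, Ppp1r3a. Among the 51 named genes, signs turned only in some that were not called: Sln (-0.0365 with quantile and -0.0367 with cyclic loess normalization), Orai1 (-0.0303 with the covariate), Trdn (-0.100 with the covariate, -0.0222 without PRKO replicates 1 and 5), Cacnb2 (-0.00501 with the covariate) and Prkg1 (-0.0214 with centring, -6.15e-05 with array weights, -0.0298 with the covariate). With 1 array left out, Casq2 ranged from -0.0725 to 0.00928, Orai1 from -0.00329 to 0.103, Trdn from -0.0236 to 0.246 and Prkg1 from -0.0321 to 0.0515. Same-numbered PRKO and PR+/- arrays correlated, as deviations from group means, at -0.0126 to 0.159, and 2 of 5 correlated best with their own number, so the numbers were not taken as pairs. With the replicate number as a block, 1 set gene rose, 1 fell and 11 wider genes fell; Nptn lost its call (adjusted p = 0.0710) and Jph2 gained one (0.0481). Stim1 passed with centring (0.0499), with a variance trend (0.0363) and without dim genes (0.0347), and Jph2 also with centring (0.0466), with the mean of its probe sets (0.00678), without dim genes (0.0497) and without PRKO replicate 5 (0.0320). The cause of these changes was not tested. Of the named genes, Sln, Casq2, Ryr1, Adamtsl3 and Wnt7a left the fit when the dimmest 30% of genes were removed.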
